A study of Mus musculus with 16 samples.

Results

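The response to TGFb was compared between 2 mouse mammary tumour cell lines, gene by gene, as the change in a Pygo2 mutant line minus the change in a wild-type line. The comparison rested on 8 of the 16 libraries of the series, chosen by their labels alone: those of the 4-day TGFb experiment, in 4 groups of 2. Line 631, called WT here, was Pygo2 +/+. Line 828, called AE, was homozygous for the A342E knockin of Pygo2 (Pygo2 A342E/A342E). Both lines came from mammary gland tumours of MMTV-PyMT mice on the FVB/N strain, so that treated and control cells of both genotypes carried the PyMT transgene, an oncogene that the MMTV promoter drives in mammary epithelium. Treated cells received TGFb at 2 ng/ml for 4 days, and the controls were untreated cells of the same line and the same 4 days. The other 8 libraries belong to a 3-day Wnt3a experiment and entered only as an alternative fit. Each genotype was represented by 1 line, so genotype and line cannot be told apart in any value below. The series names its duplicates biological, but the labels do not say how they were grown, and p-values therefore measure the spread between these samples, which may be technical.

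TGFb binds a pair of receptor kinases at the cell surface, which phosphorylate Smad2 and Smad3, and these enter the nucleus with Smad4 to switch target genes on and off. In mammary epithelium it is known for stopping the cell cycle in G1 through CDK inhibitors, and for driving epithelial cells towards a mesenchymal state with more matrix, actin stress fibres and motility. Pygo2 works in the nucleus with beta-catenin in Wnt signalling, and its PHD finger reads methylated histone H3. The comparison asks whether a line with the knockin in Pygo2 answers TGFb as a line with wild-type Pygo2 does.

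The 8 libraries held 20530538 to 26191846 counts each over 19665 genes, of which 12900 passed the filter on low counts and were tested. Levels are CPM, counts scaled to a common library total after TMM scaling, and are given for both libraries of a group. Igfbp5, an IGF binding protein, alone took 4.07% to 4.56% of the counts in the AE libraries. No pair of replicates agreed within sampling noise, with a chi-square per degree of freedom of 4.70 to 35.8. In both WT groups the ratio of replicate 1 to replicate 2 followed the GC content of transcripts across genes, with a Spearman rho of -0.692 untreated and -0.722 with TGFb. The AE values were 0.469 and -0.00034. Markers of mammary epithelium summed to 3380 to 4460 CPM in untreated WT and 1720 to 1810 CPM in untreated AE libraries, and to 3560 to 4610 and 1990 CPM with TGFb. The gap lay largely in keratins, such as Krt14 and Krt8, with untreated group means of 786 and 533 CPM in WT and 63.1 and 241 CPM in AE. Cdh1 went the other way, with 525 CPM in WT and 605 CPM in AE untreated, and 609 and 714 CPM treated. Epcam was higher in WT untreated (495 and 369 CPM) and higher in AE with TGFb (281 and 403 CPM). Of the 10 epithelial genes Krt19 reached at most 0.637 CPM and Krt5 at most 4.585 CPM. The 11 immune markers in the table summed to at most 8.50 CPM in any library. Among them Cd3d and Cd52 were at 0, and Ptprc reached at most 0.0483 CPM.

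The TGFb response differed between the lines in 3890 genes at a Benjamini-Hochberg adjusted p under 0.05 in edgeR's quasi-likelihood test. The change was higher in AE than in WT for 1883 genes, 14.6% of those tested, and lower for 2007 genes, 15.6%. Counts of members of a gene list given below are to be read against these 2 shares. TGFb alone raised 3903 genes (30.3%) and lowered 3310 (25.7%) in WT, and raised 2417 (18.7%) and lowered 2100 (16.3%) in AE. The median size of the log2 change over all genes tested was 0.53 in WT and 0.32 in AE, and the WT change was the larger in 8773 genes (68.0%). The median difference over all genes, -0.05, was near 0. When all 16 libraries shared 1 estimate of the spread, 664 genes were called higher and 499 lower, and 1151 of those 1163 calls were among the 3890.

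Most of the difference lay in genes that moved in WT and moved less, or not past the threshold, in AE. Of the 1883 genes with a higher change in AE, 696 (37.0%) fell in WT and did not pass in AE, and 586 (31.1%) fell in both lines. A further 226 (12.0%) rose in AE and did not pass in WT. Of the 2007 genes with a lower change in AE, 1031 (51.4%) rose in WT and did not pass in AE, 508 (25.3%) rose in both, and 210 (10.5%) fell in AE and did not pass in WT. TGFb moved some genes in opposite directions: 250 fell in WT and rose in AE, and 186 rose in WT and fell in AE. The lines also differed before treatment. Among the 2007 genes with a lower change in AE, the median gap between the lines was 1.13 on the log2 scale without TGFb and 0.76 with it, and TGFb widened the gap in 32.9% of them, against 44.3% of the 1883 higher genes and 44.5% of the genes that did not pass. Since the response difference equals the treated gap minus the untreated gap, these shares describe the calls and are no separate result.

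**Figure D1:**
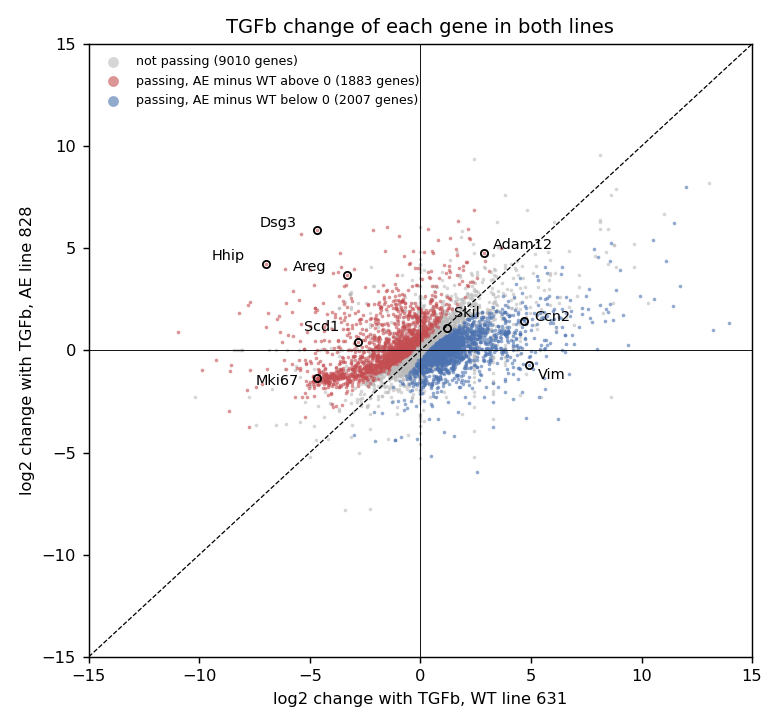
Log2 change with TGFb in the AE line (vertical axis) against the WT line (horizontal axis) for each of 12900 genes. Red and blue points passed for the difference and lie above and below the dashed line of equal change. Mki67 stands at -4.67 in WT and -1.34 in AE, and Skil lies near the dashed line. Fitted changes of genes with few counts in a group depend on the fit and may be too large or too small.

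Pygo2 (Entrez 68911, protein coding, GRCm38.p6 chr3:89430114-89435131) stood at 61.5 and 58.0 CPM in untreated and 62.4 and 66.7 CPM in TGFb-treated WT libraries. In AE it stood at 53.2 and 46.9 CPM untreated and 53.9 and 51.9 CPM with TGFb. The groups of each line lay close together and the changes overlapped between the lines. The response difference was -0.03 ± 0.15 (log2, SE, adjusted p = 0.91). Its sign was positive once counts were corrected for transcript GC and length (0.33, adjusted p = 0.264), and with a replicate block within each line added it passed (0.32, adjusted p = 0.000404). The substitution need not alter the level of the transcript, so the Pygo2 values are no check of genotype.

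Most receptor and Smad genes did not pass for the difference, and neither did 9010 of the 12900 genes tested. Of 21 receptor and Smad genes tested, 3 (14.3%) had a higher change in AE, 1 (4.76%) a lower one and 17 did not pass. The shares over all genes tested were 14.6% higher and 15.6% lower. The median difference of the list was -0.04. Smad2, Smad3 and Smad4, the transducers, did not pass, with differences of -0.04, -0.27 and -0.02. Tgfbr2, the receptor that binds the ligand, stood at 191 and 167 CPM in untreated WT and 140 and 132 CPM with TGFb. In AE it went from 162 and 170 CPM to 207 and 219 CPM. It thus fell in WT and rose in AE (difference 0.75 ± 0.14, adjusted p = 0.0041, and 0.268 in the fit of all 16 libraries). Tgfbr3, the co-receptor betaglycan, fell in both lines and less in AE (difference 1.39 ± 0.18, adjusted p = 0.00053, and 0.108 with all 16 libraries). In that fit 0 of the receptor and Smad genes were called higher by edgeR. Tgfbr1, the partner kinase, barely passed (0.63 ± 0.21, adjusted p = 0.049) and lost its call in several alternatives, such as without replicate 1 of the untreated WT cells (adjusted p = 0.14) or with all 16 libraries (0.628). Acvrl1, a type I receptor best known from endothelium, was low. It rose from 0.0761 and 0.0929 to 1.63 and 2.12 CPM in WT and fell from 2.43 and 2.80 to 1.61 and 1.29 CPM in AE (difference -5.26 ± 0.50, adjusted p = 8.4e-05).

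Smad7, Skil and Pmepa1 are Smad targets that damp the signal. Smad7 stood at 65.8 and 78.8 CPM in untreated and 151 and 186 CPM in treated WT libraries, and at 38.6 and 32.7 CPM and 91.7 and 94.8 CPM in the AE ones. Skil went from 202 and 180 to 461 and 409 CPM in WT and from 239 and 279 to 521 and 580 CPM in AE. Each gene rose in both lines without overlap between treated and untreated libraries, while the sizes of the changes overlapped between the lines. The response differences were 0.16 ± 0.20 for Smad7 (adjusted p = 0.56), -0.10 ± 0.17 for Skil (0.70) and 0.07 ± 0.16 for Pmepa1 (0.78). These calls depended on the fit. Corrected for transcript GC and length, Smad7 passed at 0.51 (adjusted p = 0.00239) and Pmepa1 at 0.30 (0.00572), while Skil did not (-0.19, 0.11). With a replicate block within each line added to that correction, Skil passed too (-0.19, adjusted p = 0.00105). Cdkn2b, the CDK inhibitor p15 and a classic Smad target, rose by 3.69 ± 0.14 in WT and 3.28 ± 0.14 in AE on the log2 scale (difference -0.41 ± 0.19, adjusted p = 0.14). With a replicate block within each line it passed as lower in AE (-0.42, adjusted p = 0.00683). A p that misses the threshold does not show that these responses were equal.

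The wider list of 24 feedback and direct target genes was less even. It held 11 genes (45.8%) with a lower change in AE, 2 (8.33%) with a higher one and 11 that did not pass. Of all genes tested 15.6% were lower and 14.6% higher. The median difference of the list was -0.69 against -0.05 over all genes. The 2 higher genes were Itgb6 and Klf10, and the higher count was 1 without replicate 1 of the treated or replicate 2 of the untreated AE cells. In the fit of all 16 libraries 5 genes were lower. Ccn2, a matricellular growth factor, went from 156 and 115 to 3494 and 3416 CPM in WT and from 261 and 262 to 716 and 694 CPM in AE. The untreated AE libraries lay above the untreated WT ones and the treated AE libraries lay below the treated WT ones (difference -3.23 ± 0.19, adjusted p = 7.4e-06). Postn, a matrix protein that binds integrins, rose from 14.2 and 12.5 to 516 and 433 CPM in WT, and from 807 and 858 to 1278 and 1258 CPM in AE (difference -4.54 ± 0.17, adjusted p = 7.5e-07). All AE libraries lay above all WT libraries for this gene.

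Among 12 ligands and ligand-binding proteins tested, 3 (25%) passed in each direction, against 14.6% higher and 15.6% lower of all genes tested. Tgfb2 rose slightly in WT, from 4.99 and 4.69 to 6.67 and 6.06 CPM, and fell in AE, from 135 and 151 to 45.8 and 47.1 CPM (difference -2.02 ± 0.17, adjusted p = 4.9e-05). Fst, the activin antagonist follistatin, moved the other way. It fell from 172 and 126 to 39.6 and 35.6 CPM in WT and rose from 10.7 and 11.4 to 35.6 and 37.4 CPM in AE (difference 3.72 ± 0.22, adjusted p = 7.8e-06), so that the treated libraries of the lines reached the same level. Of 17 genes of a list that holds Hes1 and Hey1 besides BMP pathway and Id genes, 5 (29.4%) had a higher change in AE. A lower change was found in 2 (11.8%), Hes1 and Id1. With all 16 libraries 2 were higher and 0 lower. The lower count changed on leaving out any 1 library but replicate 2 of the untreated WT cells. Id4, a helix-loop-helix factor that blocks DNA binding of its partners, fell by 3.71 ± 0.19 in WT and did not pass in AE (0.47 ± 0.16, adjusted p = 0.051), a difference of 4.18 ± 0.24 (adjusted p = 6.6e-06). Id2, another member of that family, fell in both lines and less in AE (difference 1.34 ± 0.19, adjusted p = 0.00091, and 0.151 with all 16 libraries).

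G2 and mitosis was the only one of the 25 lists in which every tested member passed for the difference. All 40 genes of the G2 and mitosis list fell in both lines, and all 40 fell less in AE. Their median log2 change was -4.13 in WT and -1.23 in AE, and their median difference was 2.82. Of 40 genes of DNA replication and S phase, 40 fell in WT and 38 in AE, and 38 had a higher change in AE, with medians of -2.91 in WT and -1.36 in AE and a median difference of 1.63. Gins2 and Pold1, a replication helicase subunit and a DNA polymerase subunit, did not pass. Leaving out 1 library at a time, 40 genes of the first list and 37 to 39 of the second passed, and in the fit of all 16 libraries 39 and 24 did.

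Mki67, the Ki-67 proliferation antigen, stood at 967 and 742 CPM in untreated WT and 39.3 and 27.8 CPM in treated WT libraries. In AE it went from 604 and 638 CPM to 239 and 252 CPM. The untreated levels of the lines were within a log2 gap of 0.45, and the treated AE libraries lay far above the treated WT libraries (difference 3.34 ± 0.25, adjusted p = 2.3e-05). Ccna2, a cyclin of S phase and G2, went from 362 and 297 to 12.4 and 10.2 CPM in WT and from 249 and 253 to 93.0 and 87.5 CPM in AE (difference 3.39 ± 0.19, adjusted p = 5.1e-06). Birc5, the chromosomal passenger protein survivin, went from 323 and 299 to 17.1 and 14.7 CPM in WT and from 219 and 213 to 78.7 and 74.8 CPM in AE (difference 2.80 ± 0.15, adjusted p = 4.2e-06). Cdc6, which loads the replicative helicase, went from 69.3 and 67.8 to 2.77 and 2.61 CPM in WT and from 36.3 and 40.6 to 12.4 and 12.2 CPM in AE (difference 3.03 ± 0.18, adjusted p = 7.5e-06). The same order held in each of these genes, with untreated WT highest, then untreated AE, treated AE and treated WT, and no overlap between the groups. The S phase genes E2f8, an E2F repressor, and Mcm10, a helicase activator, had differences of 3.41 ± 0.18 and 3.41 ± 0.22.

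**Figure D2:**
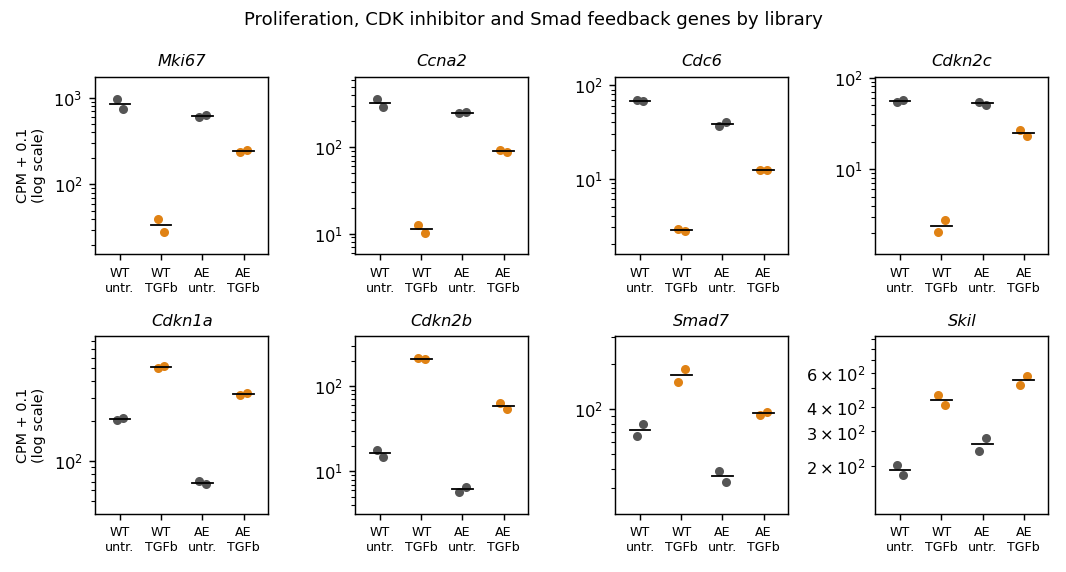
CPM plus 0.1 of 8 genes in each of the 8 libraries, on a log axis, with bars at the group means of 2 libraries. Mki67, Ccna2 and Cdc6 are lowest in TGFb-treated WT libraries, and Smad7 and Skil rise in both lines.

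Many genes of mitosis carry a short element near their start, the cell cycle homology region, with the letters TTTGAA. These letters, read on both strands, stood in 26 of 36 RefSeq promoter windows (72.2%) of the G2 and mitosis list, against 12.1% of 13022 windows of all genes tested, 16.8% of those of genes with a higher change in AE and 9.88% of those with a lower one. A window spans the 250 bases before and the 50 after an annotated start, and 34 of the 40 genes had one. The S phase list held them in 13.2% of windows. It held the E2F letters GGCGGGAA in 18.4%, against 3.93% of all windows. A match is a description of the window and not evidence of binding. Windows of 4 members with a match in the last 150 bases before a start let the element be read in place. The choice by size of difference took in part of the genome only, so members with larger differences may be missing. Sequences are from GRCm38.p6, 5′ to 3′ along the gene, with matches in capitals and TTCAAA where the element lies on the other strand.
Top2a (chr11:99024190-99024339, minus strand): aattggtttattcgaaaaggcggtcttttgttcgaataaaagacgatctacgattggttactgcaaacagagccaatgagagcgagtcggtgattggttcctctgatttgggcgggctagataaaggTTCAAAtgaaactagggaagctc
Mki67 (chr7:135716380-135716529, minus strand): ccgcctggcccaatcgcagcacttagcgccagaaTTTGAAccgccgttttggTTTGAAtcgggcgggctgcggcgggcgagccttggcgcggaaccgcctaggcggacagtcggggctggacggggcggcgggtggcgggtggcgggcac
Kif11 (chr19:37376232-37376381, plus strand): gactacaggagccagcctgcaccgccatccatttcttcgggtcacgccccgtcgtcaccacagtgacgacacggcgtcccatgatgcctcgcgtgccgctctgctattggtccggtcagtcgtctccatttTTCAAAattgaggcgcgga
Prc1 (chr7:80294326-80294475, plus strand): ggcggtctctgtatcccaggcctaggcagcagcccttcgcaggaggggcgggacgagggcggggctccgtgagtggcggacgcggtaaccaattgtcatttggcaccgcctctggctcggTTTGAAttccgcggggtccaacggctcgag

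In Top2a, Kif11 and Prc1, which encode a topoisomerase, a spindle motor and a midzone bundling protein, the match began 23, 19 and 30 bases before the start. The pair of matches in Mki67 lay further off, the nearer one beginning 98 bases before the start. The log2 changes of Top2a were -4.57 in WT and -0.95 in AE, and those of Kif11 were -4.65 and -1.38.

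CDK inhibitors and p53 targets did not move as 1 group. Of 30 genes tested, 8 (26.7%) had a higher and 4 (13.3%) a lower change in AE, against 14.6% and 15.6% of all genes tested. The median changes were 0.77 in WT and 0.73 in AE. In the fit of all 16 libraries 3 genes of the list were called higher and 1 lower. Cdkn1a, the CDK inhibitor p21, stood at 205 and 211 CPM in untreated WT and 503 and 523 CPM with TGFb, and at 70.4 and 66.4 and 313 and 323 CPM in AE. It rose in both lines and more in AE, from a lower start (difference 0.91 ± 0.12, adjusted p = 0.00065, and 0.162 with all 16 libraries). Cdkn2c, the inhibitor p18, which is itself an E2F target, fell from 53.7 and 56.9 to 1.98 and 2.65 CPM in WT and from 54.4 and 50.3 to 26.8 and 23.1 CPM in AE (difference 3.50 ± 0.22, adjusted p = 9.8e-06). Btg1, an antiproliferative factor, rose in AE and did not pass in WT (difference 1.55 ± 0.15, adjusted p = 0.00011), while Sesn3, a stress sestrin, rose in both lines and less in AE (-1.28 ± 0.13, adjusted p = 0.00013, and 0.077 with all 16 libraries). Of 22 genes of the G1 drivers and Myc list, 9 (40.9%) had a higher and 3 (13.6%) a lower change in AE. With all 16 libraries 3 were higher and 1 lower. Myc itself did not pass in either line or for the difference (0.19 ± 0.27, adjusted p = 0.64, and 0.0104 with the GC and length correction and a replicate block within each line). Odc1, the rate-limiting enzyme of polyamine synthesis and a Myc target, fell in WT from 277 and 226 to 152 and 143 CPM and rose in AE from 79.1 and 78.8 to 123 and 126 CPM (difference 1.43 ± 0.16, adjusted p = 0.00021). The D cyclins Ccnd2 and Ccnd1 went the other way. Ccnd2 rose by 5.33 ± 0.23 in WT and 2.23 ± 0.19 in AE, and Ccnd1 did not pass in WT (0.01 ± 0.09) and fell by 1.08 in AE (differences -3.10 ± 0.29 and -1.09 ± 0.13). With all 16 libraries Ccnd1 did not pass (adjusted p = 0.153).

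**Figure D3:**
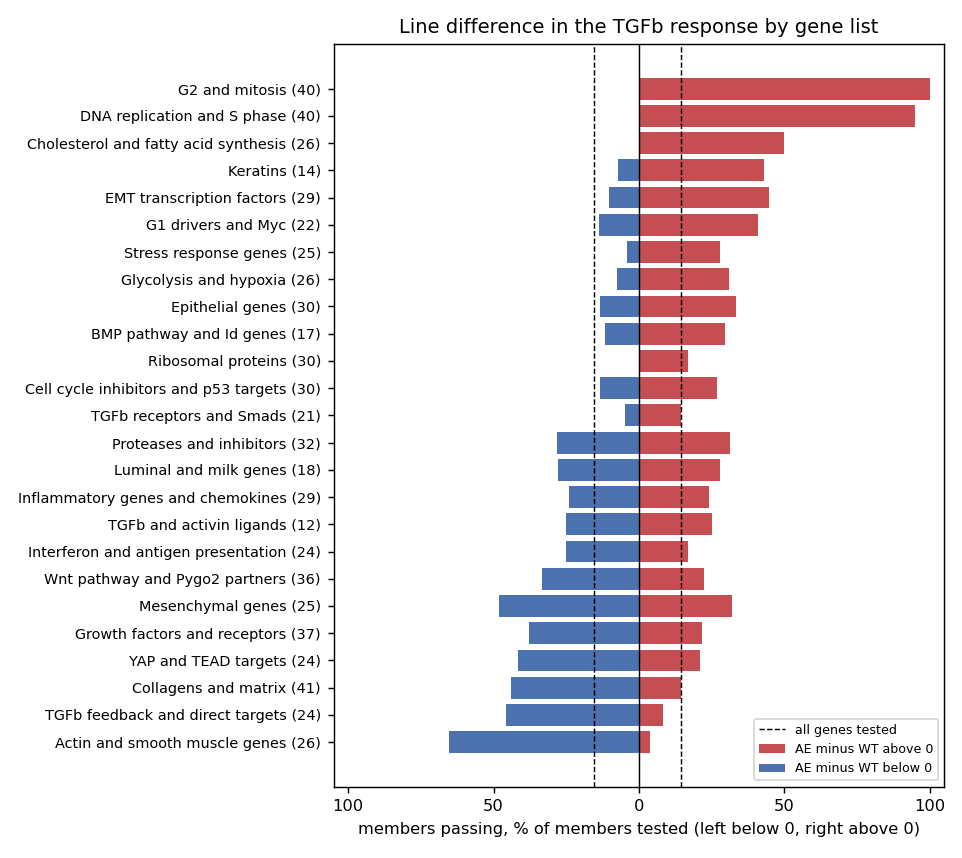
Share of the tested members of each gene list (numbers of genes in brackets) whose TGFb response passed as higher in AE (red, to the right) or lower in AE (blue, to the left). Dashed lines mark the shares over all genes tested, 14.6% and 15.6%. G2 and mitosis reaches 100% on the right and the actin list 65.4% on the left.

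The actin and smooth muscle list had the highest share of genes with a lower change in AE among the 25 lists, 65.4%. Of 26 genes tested, 21 rose in WT, 17 had a lower change in AE and 1, Tpm2, a higher one. The median log2 change was 1.20 in WT and 0.07 in AE, and the median difference was -1.13, or -1.19 with groups of 0 counts set to 3 counts. The members that did not pass for the difference included the actin-binding proteins Tagln2 and Tpm4, with -0.15 and -0.13. Mylk, the kinase that activates smooth muscle myosin, rose from 0.305 and 0.604 to 5.09 and 6.19 CPM in WT and stood at 12.7 and 13.5 CPM untreated and 11.2 and 13.7 CPM treated in AE (difference -3.73 ± 0.37, adjusted p = 0.00011). Acta1, an alpha-actin of skeletal muscle, went from 1.48 and 2.23 to 13.2 and 22.7 CPM in WT and from 2.66 and 1.88 to 0.679 and 0.816 CPM in AE. The untreated libraries of the lines overlapped, and the treated ones moved apart (difference -4.87 ± 0.52, adjusted p = 0.00017). Acta2, the smooth muscle alpha-actin used as a myofibroblast marker, was at 0 counts in both untreated WT libraries and at 3.46 and 3.80 CPM with TGFb, at least 58.0-fold higher. In AE it stood at 69.0 and 64.5 CPM untreated and 74.4 and 85.0 CPM treated and did not pass (0.26 ± 0.12, adjusted p = 0.14). All AE libraries were thus far above the treated WT ones. Actin genes are near-identical in their coding parts, and how reads that fit several of them were counted is not given in the sources used here, so the values of single alpha-actins are uncertain. In the fit of all 16 libraries 4 genes of the list were called lower.

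TEAD factors bind the letters CATTCC and drive actin and matrix genes together with YAP. These letters stood in 10 of 27 windows of the actin list (37.0%), against 12.3% of all windows and 14.2% of those of genes with a lower change in AE. They were not the only letters above the share of all windows. The AP-1 letters TGAGTCA stood in 4 windows of the list (14.8%, against 3.95%) and the Smad letters CAGAC in 16 (59.3%, against 47.2%). The letters of Snail and Zeb, CACCTG, stood in 18.5% (17.9% of all windows), TTTGAA in 11.1% (12.1%) and GGCGGGAA in 0%. No other letters were searched, so elements of other factors, such as Srf of the list itself, were not looked for. Windows of 3 members with a lower change and a match in the last 150 bases before a start show the place of the letters. They were chosen by size of difference under the same restriction. The notation is the same, with GGAATG for the other strand.
Acta2 (chr19:34255374-34255523, minus strand): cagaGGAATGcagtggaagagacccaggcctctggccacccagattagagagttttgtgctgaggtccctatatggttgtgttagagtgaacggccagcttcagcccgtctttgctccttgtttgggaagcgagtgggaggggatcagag
Acta1 (chr8:123894776-123894925, minus strand): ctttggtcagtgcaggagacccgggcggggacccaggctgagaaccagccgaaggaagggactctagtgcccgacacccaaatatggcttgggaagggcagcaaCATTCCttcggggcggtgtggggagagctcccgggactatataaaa
Lmod1 (chr1:135324663-135324812, plus strand): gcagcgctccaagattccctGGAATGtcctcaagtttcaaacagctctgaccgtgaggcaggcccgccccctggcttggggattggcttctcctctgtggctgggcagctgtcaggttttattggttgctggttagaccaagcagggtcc

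The match of Acta1 began 46 bases before the start, and those of Acta2 and Lmod1, a leiomodin that nucleates actin filaments, lay 146 and 130 bases before it. Of 24 genes of the YAP and TEAD list, 10 (41.7%) had a lower and 5 (20.8%) a higher change in AE. Of all genes tested 15.6% were lower and 14.6% higher. The median change of the list was 0.86 in WT and 0.34 in AE. In the fit of all 16 libraries 2 genes were lower and 2 higher. Besides targets the list holds Yap1, Wwtr1, Wwc1 and the Tead genes themselves, so its counts are not those of targets alone. The higher count was 3 without replicate 2 of the treated AE cells. F3, the tissue factor that starts coagulation, rose from 18.7 and 13.5 to 86.9 and 68.6 CPM in WT and fell from 42.5 and 43.8 to 23.9 and 24.96 CPM in AE (difference -3.09 ± 0.25, adjusted p = 3.5e-05). Nt5e, the ecto-nucleotidase CD73, rose in both lines and more in AE, from 308 and 257 to 923 and 776 CPM in WT and from 4.58 and 4.79 to 142 and 148 CPM in AE (difference 3.36 ± 0.19, adjusted p = 5.7e-06). The AE libraries remained below all WT libraries. Yap1 itself did not pass.

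Matrix genes moved on both sides. Of 41 collagen and matrix genes tested, 18 (43.9%) had a lower and 6 (14.6%) a higher change in AE, against 15.6% and 14.6% of all genes tested. The median change was 1.40 in WT and 0.83 in AE. In the fit of all 16 libraries 11 were lower. The 18 included fibrillar and basement membrane chains. Col12a1, a collagen that links fibrils, rose from 37.1 and 35.2 to 816 and 734 CPM in WT and from 266 and 291 to 930 and 991 CPM in AE (difference -2.64 ± 0.14, adjusted p = 4.8e-06). Col4a1 and Col4a2, the chains of basement membrane collagen, rose in WT by 1.04 and 0.79 and fell in AE by 1.59 and 1.43. Fn1, fibronectin, rose in both lines, from 1283 and 1475 to 17030 and 18526 CPM in WT and from 2547 and 2553 to 9777 and 11095 CPM in AE (difference -1.66 ± 0.15, adjusted p = 7.8e-05, and 0.33 in the fit of all 16 libraries). The 3 chains of collagen VI in the list had a higher change in AE. Col6a1 and Col6a2 fell in WT by 2.27 and 3.21 and rose in AE by 0.79 and 0.83. Col6a3 rose in AE by 1.60 and did not pass in WT, where it was at most 0.279 CPM. Spp1, the secreted phosphoprotein osteopontin, fell from 6412 and 5718 to 767 and 648 CPM in WT and rose from 540 and 594 to 1342 and 1369 CPM in AE (difference 4.36 ± 0.17, adjusted p = 8.5e-07). Treatment reversed the order of the lines for this gene. Col8a1, a short-chain collagen, rose in both lines and more in AE (difference 2.99 ± 0.16, adjusted p = 3.9e-06).

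Fibroblasts make many of these genes. The 12 fibroblast markers summed to 20.4 to 20.5 CPM in untreated and 75.7 to 92.2 CPM in treated WT libraries, and to 225 to 236 and 349 to 371 CPM in AE. Of 9 tested, 3 had a lower and 1 a higher change in AE, against 15.6% and 14.6% of all genes tested. Most of the AE sum came from Pdgfra, with group means of 159 CPM untreated and 84.1 CPM treated, Col1a1 with 43.0 and 145 CPM, Col3a1 with 13.5 and 40.3 CPM, Pdgfrb with 11.03 CPM untreated and 38.9 CPM treated, and Lsp1 with 2.24 and 46.2 CPM. Cd34 went the other way, with group means of 8.56 CPM untreated and 1.265 CPM treated in WT and 0 CPM in both AE groups. Without TGFb Lsp1 was also higher in WT, with 5.67 CPM, and it stood at 39.99 CPM in treated WT. Lum, Fap and Pdpn reached at most 0.0853, 0.0745 and 0.297 CPM in any library, and Dcn, Dpt and Thy1 at most 2.30, 1.88 and 1.74 CPM. The 9 endothelial markers in the table summed to 1.43 to 1.88 and 5.45 to 6.23 CPM in untreated and treated WT, and to 47.9 to 50.8 and 142 to 149 CPM in AE, nearly all of it Erg, while Tie1 was at 0 and Pecam1 reached at most 1.01 CPM. The part of such cells in the results was not tested. In bulk RNA a change in the number of cells of a type and a change in RNA per cell cannot be told apart.

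Proteases and their inhibitors split about evenly, with 9 of 32 (28.1%) lower and 10 (31.2%) higher in AE. Both shares were above the 15.6% and 14.6% of all genes tested. In the fit of all 16 libraries 4 were lower and 3 higher. The median difference of the list was -0.51 in the 8-library fit and 0.03 with groups of 0 counts set to 3 counts. Tll1, a metalloprotease of the BMP1 family that matures procollagens, was at 0 counts in untreated WT and at 92.0 and 76.5 CPM with TGFb, at least 1336-fold higher. In AE it rose from 8.47 and 9.61 to 21.7 and 23.5 CPM, 2.48-fold. The treated WT libraries were the highest of all (adjusted p of the difference 2.2e-06). Adamts12, which cleaves cartilage matrix, had a difference of -3.60 ± 0.27 (adjusted p = 2.3e-05). Adam12, a meltrin induced by TGFb, rose from 133 and 132 to 1012 and 954 CPM in WT and from 5.08 and 4.79 to 128 and 141 CPM in AE, a difference of 1.88 ± 0.14 (adjusted p = 2.6e-05, and 0.146 with all 16 libraries). The treated AE libraries only reached the level of untreated WT libraries.

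The mesenchymal list had 12 of 25 genes (48%) lower and 8 (32%) higher in AE, against 15.6% and 14.6% of all genes tested. Its median changes were 1.99 in WT and 1.84 in AE. In the fit of all 16 libraries 3 genes were lower and 4 higher. Vim, the intermediate filament vimentin, stood at 22.8 and 20.2 CPM in untreated and 612 and 676 CPM in treated WT libraries, and at 1204 and 1064 CPM and 700 and 690 CPM in AE. It rose in WT and fell in AE, and the treated libraries ended within a log2 gap of 0.11 between the lines (difference -5.61 ± 0.16, adjusted p = 4.1e-07). Timp1, a metalloproteinase inhibitor, and Axl, a receptor kinase linked to invasion, moved the other way. Timp1 fell from 259 and 272 to 85.0 and 84.3 CPM in WT and rose from 1.74 and 2.76 to 13.8 and 14.0 CPM in AE (difference 4.25 ± 0.22, adjusted p = 3.7e-06). Axl fell from 132 and 130 to 43.5 and 51.3 CPM in WT and rose from 7.23 and 8.21 to 34.3 and 36.6 CPM in AE (difference 3.66 ± 0.18, adjusted p = 2.7e-06). In all 3 genes the lines stood closer together with TGFb than without it.

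Transcription factors for and against the mesenchymal state gave 13 of 29 genes (44.8%) with a higher and 3 (10.3%) with a lower change in AE. Of all genes tested 14.6% were higher and 15.6% lower. The median difference of the list was 0.29, or 0.48 with groups of 0 counts set to 3 counts. Zeb1 rose in both lines, by 2.64 ± 0.22 in WT and 2.54 ± 0.28 in AE (difference -0.10 ± 0.39, adjusted p = 0.87), and Snai1 and Twist1 did not pass. Snai2 had a small lower change in AE (-1.05 ± 0.27, adjusted p = 0.018), which did not pass without replicate 1 of the untreated AE cells (0.071) or without either treated AE library (0.073 and 0.072). Snai2 also did not pass with all 16 libraries (adjusted p = 0.227) or in edgeR's test against 1.5-fold (0.108). In the fit of all 16 libraries 9 genes of the list were higher and 0 lower. The 13 higher genes of the 8-library fit held epithelial factors as well as mesenchymal ones. Ehf, an Ets factor of epithelia, fell from 18.7 and 15.8 to 0.445 and 0.265 CPM in WT and from 60.5 and 71.3 to 33.8 and 38.0 CPM in AE (difference 4.72 ± 0.31, adjusted p = 1.2e-05). Klf4, a factor of differentiated epithelium, fell in WT from 86.2 and 92.7 to 23.8 and 29.4 CPM and rose in AE from 1.97 and 2.95 to 7.09 and 8.72 CPM (difference 3.42 ± 0.28, adjusted p = 4.0e-05). Fosl1, an AP-1 subunit tied to mesenchymal carcinoma cells, fell in WT from 45.8 and 61.3 to 5.09 and 7.56 CPM and rose in AE from 0.366 and 0.663 to 2.84 and 2.79 CPM (difference 5.48 ± 0.42, adjusted p = 2.9e-05). For Klf4 and Fosl1 every AE library stayed below every WT library.

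Cdh1, the junction protein E-cadherin, stood at 518 and 532 CPM in untreated WT and 620 and 599 CPM with TGFb, and at 595 and 615 and 699 and 729 CPM in AE. It did not pass in either line, and the lines' changes overlapped (difference 0.02 ± 0.12, adjusted p = 0.90). With the GC and length correction and a replicate block within each line it passed at 0.11 (adjusted p = 0.0436). Of 30 epithelial genes tested, 10 (33.3%) had a higher and 4 (13.3%) a lower change in AE, against 14.6% and 15.6% of all genes tested. With all 16 libraries 4 were higher and 3 lower. Ppl, the cornified envelope protein periplakin, fell from 75.0 and 74.7 to 4.55 and 4.78 CPM in WT and from 78.0 and 79.2 to 30.1 and 32.0 CPM in AE, with untreated levels within a log2 gap of 0.07 (difference 2.66 ± 0.15, adjusted p = 6.2e-06). Pkp1, a desmosomal plakophilin, fell in WT from 175 and 166 to 94.4 and 91.3 CPM and rose in AE from 44.9 and 42.1 to 183 and 199 CPM (difference 3.01 ± 0.13, adjusted p = 1.8e-06). Cldn1, a tight junction claudin, was among the 4 with a lower change, falling in AE from 19.4 and 23.7 to 0.892 and 1.37 CPM against 12.0 and 9.98 to 7.37 and 4.73 CPM in WT (difference -3.38 ± 0.38, adjusted p = 0.00025).

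Dsg3, a desmosomal cadherin of stratified epithelium, was among the 10 largest positive differences of all genes. It fell from 64.0 and 66.0 to 2.87 and 2.30 CPM in WT and rose from 0.229 and 0.184 to 10.95 and 13.8 CPM in AE (difference 10.54 ± 0.31, adjusted p = 4.1e-07). Without TGFb it was far higher in WT, and with TGFb it was higher in AE. Keratins of stratified and stressed epithelium shared this pattern in part. Of 14 keratins tested, 6 (42.9%) had a higher and 1 (7.14%), Krt8, a lower change in AE, against 14.6% and 15.6% of all genes tested. Krt8 rose in WT from 449 and 617 to 643 and 914 CPM and kept its call with a replicate block within each line. Krt16, a keratin of activated keratinocytes, fell from 43.0 and 63.5 to 16.3 and 27.4 CPM in WT and rose from 0.549 and 0.368 to 3.99 and 2.88 CPM in AE (difference 4.20 ± 0.54, adjusted p = 0.00049). Krt79 fell in WT from 11.3 and 9.84 CPM to 0 counts, at least 152-fold lower, and rose in AE from 3.57 and 4.01 to 6.28 and 7.95 CPM (adjusted p of the difference 8.5e-06). Krt6a, which shares reads with its near copy Krt6b, fell from 15.4 CPM in both untreated WT libraries to 0.0494 and 0.0442 CPM, 330-fold with a 95% counting interval of 91.0 to 2729, and was at most 0.129 CPM in AE. Krt14, the basal keratin, fell in WT from 562 and 1010 to 280 and 522 CPM. Both WT groups spread widely, with replicate 2 the higher. In AE it stood at 71.9 and 54.2 CPM untreated and 91.1 and 85.9 CPM treated (difference 1.46 ± 0.46, adjusted p = 0.041). It kept its call with a replicate block within each line. It did not pass in DESeq2 (0.0536), with all 16 libraries (0.539), without any 1 of the 4 AE libraries (0.0727 to 0.134) or without replicate 2 of the untreated WT cells (0.088). Without replicate 2 of the untreated WT cells the higher count of keratins was 3. The lower count was 0 without replicate 1 of the untreated WT, replicate 1 of the untreated AE or either treated AE library, and Krt8 did not pass with all 16 libraries (adjusted p = 0.713).

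Luminal and milk genes gave 5 of 18 in each direction, the higher count being 3 without replicate 1 or 2 of the untreated or replicate 1 of the treated AE cells. The 5 genes each way were 27.8% of the list, against 14.6% higher and 15.6% lower of all genes tested. With all 16 libraries 2 were higher and 4 lower. Areg, an EGF receptor ligand induced by oestrogen in the luminal lineage, fell from 460 and 361 to 48.3 and 32.9 CPM in WT and rose from 0.641 and 0.663 to 8.15 and 8.93 CPM in AE (difference 7.04 ± 0.35, adjusted p = 3.3e-06). The WT libraries remained above the AE ones under treatment. Csn3, the milk protein kappa-casein, fell in AE from 150 and 160 to 14.8 and 15.8 CPM. In WT it rose from 0.0381 and 0 to 2.03 and 1.95 CPM, 94.8-fold with an interval of 16.6 to 3789 (adjusted p of the difference 1.6e-06). Aldh1a3, a retinaldehyde dehydrogenase of luminal progenitors, fell in both lines and more in AE (difference -3.22 ± 0.23, adjusted p = 1.9e-05).

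**Figure D4:**
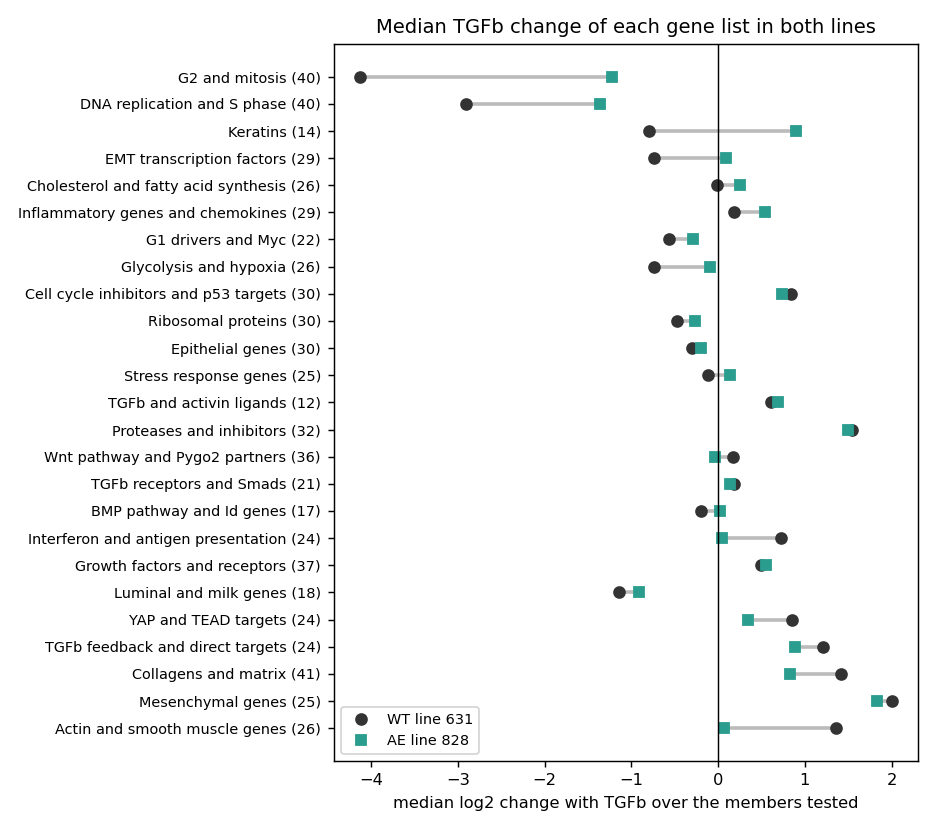
Median log2 change with TGFb over the tested members of each gene list in the WT line (circles) and the AE line (squares), with groups of 0 counts set to 3 counts and genes at 3 counts or fewer in both groups of a line left out of its median. The G2 and mitosis list stands at -4.13 and -1.23, and the actin list at 1.36 and 0.07.

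Genes of the Wnt pathway and partners of Pygo2 moved in both directions, 12 of 36 (33.3%) lower and 8 (22.2%) higher. Of all genes tested 15.6% were lower and 14.6% higher. Median changes of the list were 0.30 in WT (0.17 with groups of 0 counts set to 3 counts) and -0.02 in AE. In the fit of all 16 libraries 8 genes were lower and 5 higher. The higher count was 5 without replicate 2 of the untreated WT cells. Ctnnb1, beta-catenin, had values of -0.20 in WT and -0.23 in AE, neither of which passed, and a difference of -0.03 (adjusted p = 0.89). Axin2, the classic beta-catenin target, stood at 0.346 to 0.418 CPM in WT and 4.53 to 11.6 CPM in AE and did not pass (difference 0.81 ± 0.68, adjusted p = 0.40). Tcf7l2, a DNA-binding partner of beta-catenin, rose in WT from 24.3 and 23.1 to 40.4 and 41.2 CPM and fell in AE from 73.2 and 73.7 to 38.3 and 37.6 CPM, which brought the lines to nearly the same level (difference -1.74 ± 0.14, adjusted p = 4.1e-05). Bcl9, the adaptor that joins Pygo proteins to beta-catenin, also had a lower change in AE, with 1.05 in WT and -0.11 in AE, which did not pass (adjusted p of the difference 0.0028). Wnt5b, a ligand of the non-canonical branch, rose in WT from 2.13 and 2.37 to 14.8 CPM in both libraries and fell in AE from 296 and 274 to 128 and 123 CPM (difference -3.91 ± 0.15, adjusted p = 1.0e-06). Nkd2, an inhibitor of Dishevelled, fell in WT from 237 and 296 to 143 and 153 CPM and rose in AE from 54.2 and 59.5 to 362 and 399 CPM (difference 3.59 ± 0.18, adjusted p = 3.5e-06).

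Among 37 growth factor and receptor genes, 14 (37.8%) had a lower and 8 (21.6%) a higher change in AE, against 15.6% and 14.6% of all genes tested. With all 16 libraries 8 were lower and 4 higher. The IGF system held several. Igf1 was at 0 counts in untreated WT and at 59.9 and 42.1 CPM with TGFb, at least 805-fold higher, and went from 298 and 303 to 628 and 574 CPM in AE, 2.00-fold (adjusted p of the difference 6.3e-06). Igfbp5 rose in WT from 137 and 130 to 1868 and 1667 CPM and stayed between 41369 and 43558 CPM in AE (difference -3.74 ± 0.14, adjusted p = 7.5e-07). Igfbp3, the main carrier of IGF in serum, fell in WT from 11.8 and 12.8 to 3.61 and 3.36 CPM and rose in AE from 177 and 185 to 800 and 810 CPM (difference 3.97 ± 0.15, adjusted p = 7.5e-07). All 3 genes were higher in every AE than in every WT library. Igfbp7, another secreted binding protein, rose in both lines and less in AE (difference -3.06 ± 0.14, adjusted p = 2.2e-06).

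**Figure D5:**
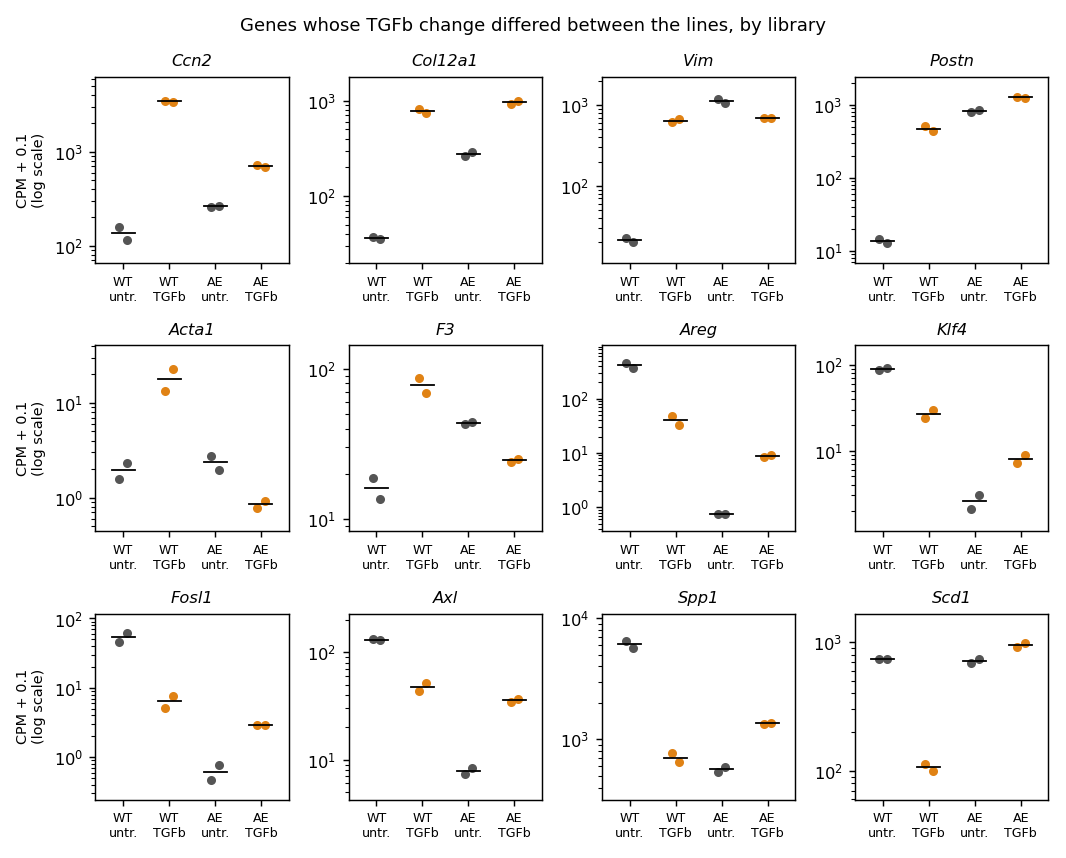
CPM plus 0.1 of 12 genes in each of the 8 libraries, on log axes that differ between panels, with bars at the group means of 2 libraries. Ccn2, Col12a1 and Postn rise in both lines and more in WT, Vim, Acta1 and F3 rise in WT and fall in AE, and the last 6 panels show genes that fall in WT and rise in AE.

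Inflammatory genes and chemokines passed in 7 of 29 cases (24.1%) in each direction, against 14.6% higher and 15.6% lower of all genes tested. In the fit of all 16 libraries 3 were higher and 1 lower. Cxcl12, a chemokine of stromal cells, rose from 1.45 and 0.836 to 78.0 and 72.3 CPM in WT and from 37.8 and 34.5 to 145 and 127 CPM in AE (difference -4.09 ± 0.25, adjusted p = 9.1e-06). Ptgs2, cyclooxygenase 2, stood at 1386 and 1227 CPM in untreated and 1562 and 1421 CPM in treated WT libraries, and rose in AE from 12.2 and 13.7 to 76.0 and 87.3 CPM (difference 2.46 ± 0.17, adjusted p = 1.6e-05, and 0.0625 with all 16 libraries). Its WT level stayed far above that of AE. In the interferon and antigen presentation list, 6 of 24 genes (25%) had a lower and 4 (16.7%) a higher change, against 15.6% and 14.6% of all genes tested. With all 16 libraries 1 was lower and 2 were higher. Irf9, the DNA-binding subunit of the interferon-activated complex, rose in WT by 1.66 ± 0.15 and did not pass in AE (-0.33 ± 0.15, adjusted p = 0.11), a difference of -2.00 ± 0.21 (adjusted p = 0.00016). Oasl2, an interferon-induced gene, rose in both lines and more in AE (difference 2.51 ± 0.29, adjusted p = 0.00027). These counts rested on single libraries: the lower one was 3 without either untreated AE library, and the higher one 2 without replicate 1 of the untreated WT or replicate 2 of the treated AE cells.

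Of 26 genes of cholesterol and fatty acid synthesis, 13 (50%) had a higher change in AE and 0 a lower one (edgeR, 8 libraries). Of all genes tested 14.6% were higher and 15.6% lower. Median changes of the list were -0.01 in WT and 0.26 in AE. In the fit of all 16 libraries 4 genes were higher. Scd1, the desaturase that makes oleate, stood at 737 and 746 CPM in untreated WT and 112 and 99.9 CPM with TGFb, and at 687 and 734 and 918 and 991 CPM in AE. With untreated lines within a log2 gap of 0.06, it fell in WT and rose in AE (difference 3.23 ± 0.14, adjusted p = 1.8e-06). Elovl6, a fatty acid elongase, and Dhcr7, the last enzyme of cholesterol synthesis, fell in WT by 2.40 and 1.63 and had differences of 1.68 ± 0.16 and 1.43 ± 0.14. The count of 13 was 6 without replicate 1 of the untreated AE cells, 7 without replicate 1 and 6 without replicate 2 of the treated ones. Of 26 glycolysis and hypoxia genes, 8 (30.8%) had a higher and 2 (7.69%) a lower change. With all 16 libraries 4 were higher and 2 lower. Ldha, lactate dehydrogenase, fell from 1436 and 1586 to 302 and 317 CPM in WT and from 1259 and 1232 to 845 and 853 CPM in AE (difference 1.74 ± 0.13, adjusted p = 2.3e-05). Car9, the carbonic anhydrase induced by hypoxia, fell in WT from 8.57 and 9.05 to 1.98 and 1.90 CPM and rose in AE from 71.5 and 69.1 to 92.6 and 91.8 CPM (difference 2.57 ± 0.17, adjusted p = 1.2e-05). P4ha2, a collagen prolyl hydroxylase, went the other way (difference -3.47 ± 0.22, adjusted p = 1.1e-05).

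Ribosomal protein genes served as a check on broadly expressed transcripts. They fell in WT in 21 of 30 cases, with a median of -0.48, and had a median of -0.26 in AE. Their differences were small, with 5 higher calls and 0 lower ones in edgeR (9 higher in DESeq2). The 5 higher calls were 16.7% of the list, near the 14.6% of all genes tested. Rps6, for example, had 0.51 ± 0.12 (adjusted p = 0.014). The count was 0 without any 1 of the 4 AE libraries and 9 without replicate 1 of the treated WT cells. In the stress response list 7 of 25 genes had a higher and 1, Trib3, a lower change, and 4 were higher without replicate 1 of the treated AE cells. The lower count was 6 without replicate 1 of the treated WT and 4 without replicate 2 of the untreated WT cells. It was 0 without replicate 1 of the untreated WT, replicate 2 of the untreated AE or either treated AE library. The 7 higher and 1 lower genes were 28% and 4% of the stress list, against 14.6% and 15.6% of all genes tested. With all 16 libraries 2 were higher and 0 lower. Gclc, the rate-limiting enzyme of glutathione synthesis, fell in WT from 127 and 119 to 68.0 and 62.7 CPM and rose in AE from 50.5 and 57.0 to 69.9 and 76.4 CPM (difference 1.36 ± 0.15, adjusted p = 0.00023). Aldh3a1, an aldehyde dehydrogenase of epithelia, fell from 91.8 and 111 to 1.38 and 1.46 CPM in WT and rose from 0.183 and 0.0737 to 2.04 and 2.06 CPM in AE, which left the treated libraries within a log2 gap of 0.52 (difference 10.15 ± 0.37, adjusted p = 7.5e-07).

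The 10 largest fitted differences in each direction were mostly genes with a WT group at or near 0 counts, so their order depends on the fit. On the negative side, Ccn4, a matricellular protein of the CCN family, had counts in every library. It rose from 0.419 and 0.650 to 228 and 218 CPM in WT and from 138 and 134 to 388 and 368 CPM in AE (difference -7.24 ± 0.20, adjusted p = 4.1e-07), and the treated AE libraries were the highest of all. Masp1, a protease of the lectin complement pathway, rose from 0.0381 and 0 to 88.0 and 90.0 CPM in WT and from 0.870 and 0.626 to 6.03 and 7.001 CPM in AE, with treated WT far above the other groups (adjusted p of the difference 1.1e-05). Tg, the thyroid hormone precursor thyroglobulin, Dpysl3, a cytoskeletal protein of growing neurites, and Lrrn2, a leucine-rich repeat membrane protein, were at 0 counts in untreated WT. They were at least 235-fold, 129-fold and 85.5-fold higher there with TGFb, and rose 4.54-fold, 5.80-fold and 6.36-fold in AE. Myrip, a linker of vesicles to myosin, rose in WT to 6.13 and 8.09 CPM and did not pass in AE, where it was at most 0.847 CPM.

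On the positive side, Dio2, the deiodinase that activates thyroid hormone, stood at 3.43 and 2.97 CPM in untreated WT and 2.52 and 3.76 CPM in untreated AE libraries. With TGFb it fell to 0.0989 and 0.0442 CPM in WT and rose to 157 and 174 CPM in AE, so overlapping untreated levels were followed by treated levels far apart (adjusted p of the difference 7.5e-07). Hhip, which binds Hedgehog ligands, fell from 34.5 and 32.2 to 0.346 and 0.177 CPM in WT and rose from 0.229 and 0.184 to 3.48 and 4.47 CPM in AE (difference 11.23 ± 0.41, adjusted p = 7.5e-07). Chst1, a carbohydrate sulfotransferase, fell in WT from 5.10 and 4.97 CPM to 0 counts, at least 72.004-fold lower, and 1.94-fold in AE (adjusted p of the difference 0.00025). Il1rn, Klk6 and Akr1c18, an antagonist of interleukin 1, a kallikrein protease and a steroid reductase, fell in WT from 5.01 CPM or more to 0.442 CPM or less. In AE they were at most 0.467 CPM in any library, so that their differences rest on few counts.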

How the data were processed

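Messenger RNA of 2 cell lines was sequenced as TruSeq Stranded mRNA libraries with single reads, per the labels' protocols. The submitters' processing notes name STAR and mm10; which program counted reads, with what strand setting and annotation, is not given in the sources used here. Deposited was 1 table of read counts per Entrez gene (19665 genes), whose values are whole-number counts although its name speaks of CPM. Gene names came from NCBI's GRCm38.p6 table, which named 19613 IDs. The other 52 were kept by ID, without a name.

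From the counts, a gene was kept if 2 or more of the 8 libraries reached 1 CPM (12900 genes). Libraries were scaled with TMM, and edgeR's quasi-likelihood test was fitted with 1 mean per group (residual df 4, prior df 4.73, common BCV 0.118). The response difference was the AE change minus the WT change. A gene passed, and is called higher or lower, rose or fell, at a Benjamini-Hochberg adjusted p under 0.05 over all genes tested. The SE is the log2 value divided by the square root of F. Where a group held 0 counts, a fold is a bound computed with 3 counts in that group's place, and with 1 to 3 counts the ratio has its 95% counting interval (exact Clopper-Pearson), which covers counting error only. Steps were tested on simulated counts.

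The members and the 25 gene lists were chosen with earlier results of these data known. Named are Pygo2, 21 fixed genes, the 10 largest differences in each direction among passing genes whose changes did not overlap and that averaged 5 CPM or more in some group, and up to 3 passing members per list with the smallest p. For length the text leaves out some of these and adds members that show a list's range, chosen after their values were seen. Promoter windows came from RefSeq's GRCm38.p6 and covered 10178 of 12900 genes.

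Alternatives were median-ratio, upper-quartile and total-count scaling, dropping the filter, a 5 CPM minimum, a dispersion without trend, DESeq2, limma on log2(CPM + 0.1), a test against 1.5-fold, all 16 libraries, replicate blocks, correcting for transcript GC and length (GENCODE M21, known for 96.5% of genes tested) and leaving out each library. Versions were DESeq2 1.42.0, limma 3.58.1 and edgeR 4.0.16 under R 4.3.3, and matplotlib 3.10.9 and pandas 2.3.3 under Python 3.11.15.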

Additional observations from a re-analysis of the deposited data

Results flagged for a closer look

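The lines responded differently to TGFb, by the test of the difference itself, in the 1883 genes with a higher and the 2007 genes with a lower change in AE given above. Among the genes named by rule, 32 passed for the difference and also moved in opposite directions in the lines, each change passing in its own line.

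Those that rose in WT and fell in AE were Vim (difference -5.61), Acvrl1 (-5.26), Acta1 (-4.87), Wnt5b (-3.91), F3 (-3.09), Tgfb2 (-2.02) and Tcf7l2 (-1.74), each on the log2 scale, and Csn3, whose untreated WT group held too few counts for a fitted size (adjusted p = 1.55e-06).

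Genes that fell in WT and rose in AE, with their log2 differences, were Tgfbr2 (0.75), Gclc (1.36), Odc1 (1.43), Car9 (2.57), Pkp1 (3.01), Scd1 (3.23), Klf4 (3.42), Nkd2 (3.59), Axl (3.66), Fst (3.72), Igfbp3 (3.97), Krt16 (4.20), Timp1 (4.25), Spp1 (4.36), Fosl1 (5.48), Areg (7.04), Aldh3a1 (10.15), Dsg3 (10.54) and Hhip (11.23). A further 5 had a group of at most 3 counts, so only the adjusted p of the difference is given: 7.69e-05 for the chemokine Cxcl10, 0.000162 for the interleukin 1 antagonist Il1rn, 0.000121 for the protease Klk6, 7.54e-07 for the thyroid hormone deiodinase Dio2 and 8.50e-06 for Krt79.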

How the results depend on the processing

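The replicate numbers did not pair the samples over both lines: deviations of same-numbered libraries correlated at 0.832 within WT and 0.366 within AE, but at -0.514 between the untreated groups. With a replicate block within each line 3736 genes were called higher and 4165 lower for the difference, and 4196 and 4291 for the AE response. With that block plus the GC and length correction the difference had 3833 and 4204 calls, and Pygo2 (0.32, adjusted p = 0.000404), Smad7, Pmepa1, Skil, Myc, Cdh1 and Cdkn2b (0.0256) gained a call. The block alone changed the call of 1 named gene, Cdkn2b. A replicate block over both lines gave 1904 and 2048, and a block crossed between the lines, chosen after seeing the data, gave 2603 and 2813.

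The GC and length correction alone gave 2943 higher and 3162 lower, and the test against 1.5-fold gave 1013 and 976. All 16 libraries together gave 664 and 499 for the difference, 1930 and 1704 for WT, and 802 and 569 for AE. Leaving out each library gave 1226 to 2249 higher and 1177 to 2620 lower for the difference, and 1312 to 2748 and 1009 to 2545 for AE. The counts moved most without replicate 1 of the untreated AE cells (1247 and 1290), replicate 1 of the treated (1304 and 1226) and replicate 2 of the treated (1226 and 1177). A lone library was assumed to vary like the other groups. The other alternatives stayed within 1.5 times the reported counts. Genes called in both fits had the same sign in every alternative.

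Sign changes occurred only in genes that did not pass. Pygo2 took 0.0204 with median-ratio scaling, 0.0396 without a filter, 0.0206 in DESeq2 and 0.33 with the GC and length correction. Leaving out a library gave a range of -0.457 to 0.435 for Zeb1, -0.214 to 0.0127 for Skil, -0.123 to 0.0540 for Pygo2, -0.00698 to 0.0600 for Cdh1, -0.0566 to 0.187 for Pmepa1 and -0.0920 to 0.524 for Myc. The cause was not tested. Counts limit low genes: 789 of 12900 had a group at 3 counts or fewer.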
